A study of Mus musculus with 9 samples.

Results

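The nuclear receptor superfamily is the group of ligand-controlled transcription factors through which the corepressors NCoR and SMRT reach DNA. A list of 44 receptor genes, without the Rev-erb genes, was matched by gene symbol to the probe sets of a liver microarray series. A probe set is the group of array probes that reads 1 transcript, and 42 receptors had a probe set carrying their symbol alone, out of 22180 genes measured this way. Nr1h2 and Nr2e3 were not analysed here. Each receptor is represented by its probe set of highest mean over the 9 arrays. Only Nr3c2 had a second such probe set.

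The series measured liver RNA of 9 mice, 1 array per mouse, to ask what NCoR1 and SMRT each do in hepatic thyroid hormone signalling. The 3 controls carried floxed, undeleted alleles of both corepressor genes (SMRT and NCoR fl/fl). In the 3 SMRT KO mice SMRT was deleted in the liver. In the 3 double KO mice (SMRT and NCoR KO) both corepressors were deleted there. All were euthyroid females of 129SV/B6 mixed background, 7 to 9 weeks old, fed standard chow. The driver of the recombinase and the NCoR allele of the SMRT KO mice are not given in the sources used here, and no group lacking NCoR alone is included. Expression of the deleted genes was not analysed here, so genotypes rest on the labels.

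Nuclear receptors share a zinc-finger DNA binding domain and a ligand binding domain, except that Nr0b1 and Nr0b2 lack the DNA binding domain. Many bind DNA beside a retinoid X receptor at repeated copies of the motif AGGTCA. Receptors for thyroid hormone and retinoic acid hold NCoR or SMRT while empty and exchange them for coactivators once ligand binds. In liver this family governs fatty acid oxidation, lipid synthesis, bile acid and drug metabolism and the response to hormones.

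Pparg, a receptor of fatty acids, was the only nuclear receptor whose mRNA passed the test, being 1.44-fold higher in double KO than in control livers. The other 41 receptors passed in no comparison. Values are log2 expression, so a difference of 1 is 2-fold, and the values of single mice are listed in the order of replicates 1 to 3. A gene was called when its adjusted p from limma, corrected by Benjamini-Hochberg over all 22180 genes, was below 0.05. In SMRT KO against control livers 0 of 42 receptors were called, where 0.00451% of all genes were. In double KO against control livers 1 rose and 0 fell, where 0.523% of all genes rose and 0.32% fell. In double KO against SMRT KO livers 0 were called, against 1.19% of all genes (0.748% higher and 0.437% lower). At an unadjusted p under 0.05 limma counted 5, 8 and 7 receptors in these 3 comparisons, beside 6%, 10.8% and 10.5% of all genes.

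The 95% interval of all 42 receptors lay within a 2-fold change in every comparison, as it did for 98.8%, 98.0% and 98.3% of all genes. The narrower band of ±0.5 held the intervals of 34 receptors in double KO against control, beside 85.6% of all genes. The median absolute difference was 0.052 for the receptors and 0.070 for all genes in SMRT KO against control, 0.079 and 0.079 in double KO against control, and 0.10 and 0.078 in double KO against SMRT KO. Groups without overlap, in which all 3 mice of 1 group lay above or below all 3 of the other, were counted next. Double KO and control livers separated in 3 receptors with higher values (Pparg, Rarb and Ppard) and 5 with lower values (Nr1h4, Rxra, Thrb, Nr1h3 and Hnf4g), where 7.73% and 7.25% of all genes did so (15% together). SMRT KO and control livers separated in 3 with higher (Pparg, Rarb and Nr2e1) and 3 with lower values (Ppara, Rxrb and Hnf4g), beside 3.8% and 4.36% (8.16% together). Double KO and SMRT KO livers separated in 7 with higher (Nr0b1, Pgr, Esr1, Nr1i2, Ppara, Ppard and Rxrb) and 3 with lower values (Nr1h3, Rora and Thrb), beside 7.54% and 6.21% (13.8% together). The 3 comparisons share groups and are not independent.

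Of the 42 receptors, 8 lay near background, defined as a mean under the 95th percentile of 1390 olfactory and vomeronasal receptor genes (5.97). These were Pgr, Hnf4g, Rorb, Esrrb, Nr4a2, Nr4a3, Nr2e1 and Nr0b1, and their differences are not shown to reflect expression. Hepatocyte markers were well above that level, with 0 of 9 near it. Arrays correlated at 0.987 to 0.992 within groups and 0.983 to 0.989 between groups over all probe sets.

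**Figure D1:**
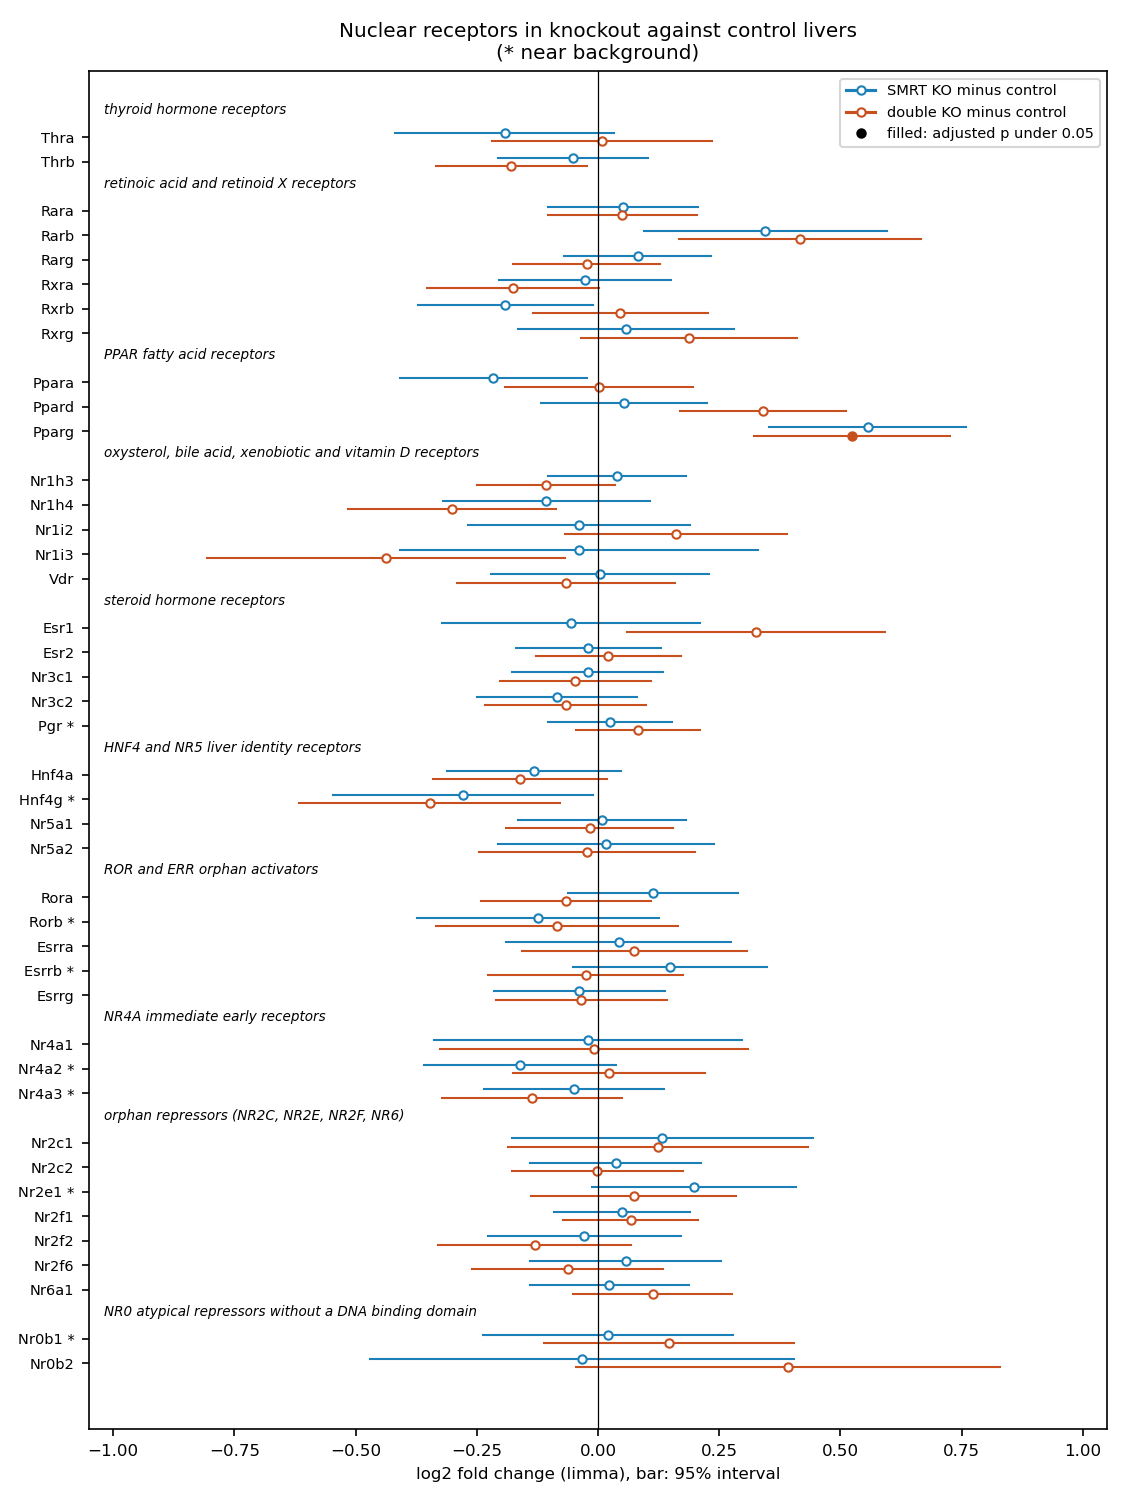
The log2 fold change of each of the 42 receptors is plotted with its 95% interval from limma, for SMRT KO minus control (blue) and double KO minus control (orange), with receptors grouped by role. Pparg in double KO livers, at 0.52, is the only filled point, and every interval stays between -1 and 1.

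The PPARs are sensors of fatty acids. Pparg, the member that drives fat storage in adipocytes, rose in double KO livers and had values of the same size in SMRT KO livers. Its 3 control values were 7.98, 8.28 and 7.95 (replicates 1 to 3), its SMRT KO values 8.63, 8.60 and 8.65 and its double KO values 8.62, 8.65 and 8.52. All 6 knockout livers lay above all 3 controls, and the knockout groups overlapped each other. Double KO livers exceeded controls by 0.52 (1.44-fold, standard error 0.090, 95% interval 0.32 to 0.73, adjusted p = 0.0346). For SMRT KO livers the difference was 0.56 (1.47-fold, interval 0.35 to 0.76), which did not pass (adjusted p = 0.223). In that comparison a single gene of 22180 passed. Double KO and SMRT KO livers differed by -0.033 (interval -0.24 to 0.17, adjusted p = 0.948).

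The Pparg call was near the threshold and was lost in most fits that left out 1 mouse. Over 17 alternatives its adjusted p in double KO against control ran from 0.0107 to 0.158, and the difference from 0.46 to 0.63. The call was lost without control replicate 1 (adjusted p = 0.124) or 3 (0.134), without double KO replicate 1 (0.127), 2 (0.158) or 3 (0.0757), and without SMRT KO replicate 1 (0.0623), 2 (0.0598) or 3 (0.0554). Leaving out a SMRT KO mouse kept the difference between double KO and control at 0.52. The call was also lost with only the 2 groups in the fit (0.107). Without control replicate 2, the highest control, Pparg passed in both knockouts (adjusted p = 0.0291 for SMRT KO and 0.0107 for double KO).

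Pparg is also made by macrophages and adipocytes, and liver RNA is a mixture, in which more cells of a type and more RNA per cell cannot be told apart. The 14 Kupffer cell and macrophage markers all had a difference above 0 in SMRT KO against control livers, with a median of 0.21, and 0 passed limma's test (5 at an unadjusted p under 0.05). Their summed linear signal was 5365 to 6265 in control, 6399 to 7407 in SMRT KO and 5406 to 6168 in double KO livers, so the SMRT KO values lay above all controls, and the double KO values lay inside the range of the controls. Of 7 adipocyte markers 5 were measured and 0 had a difference above 0 in double KO livers. Adipoq and Lep were near background. The summed signal was 492 to 705 in control, 369 to 447 in SMRT KO and 383 to 462 in double KO livers. Every knockout liver lay below the controls. Fabp4, which is also a Pparg target, gave the largest part of the control sums. It is expressed in macrophages too, and differed by -0.68 in SMRT KO and -0.68 in double KO livers. The sum therefore does not measure adipocytes alone. The part of Kupffer cell content in the Pparg differences of SMRT KO and double KO livers was not tested.

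Ppard, which is expressed in most tissues, had higher values in double KO livers that did not pass. It measured 7.99, 7.85 and 8.06 in the controls, 8.06, 7.96 and 8.05 in SMRT KO and 8.38, 8.22 and 8.32 in double KO livers. The double KO values lay above both other groups without overlap, at 0.34 over control (adjusted p = 0.0960, 0.0576 to 0.275 over the alternatives) and 0.29 over SMRT KO (adjusted p = 0.153). Ppara, the main hepatic regulator of fatty acid oxidation, measured 10.62, 10.47 and 10.46 in the controls, 10.39, 10.30 and 10.21 in SMRT KO and 10.44, 10.45 and 10.67 in double KO livers. SMRT KO livers were lower than both other groups without overlap, but neither difference passed (-0.22 against control, adjusted p = 0.826, and 0.22 for double KO against SMRT KO, adjusted p = 0.403). Double KO and control livers differed in Ppara by 0.0022 (interval -0.19 to 0.20).

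Among the retinoic acid receptors, Rarb, itself induced by retinoic acid through a motif in its promoter, had values above the controls in all 6 knockout livers, as Pparg did. It measured 7.48, 7.26 and 7.66 in the controls, 7.69, 7.83 and 7.91 in SMRT KO and 7.78, 8.01 and 7.86 in double KO livers. The difference was 0.35 in SMRT KO (1.27-fold, adjusted p = 0.750) and 0.42 in double KO livers (1.33-fold, standard error 0.11, adjusted p = 0.179), and neither passed under any of the 17 alternatives. Stellate cells, which store retinoids, also express Rarb. Of 13 stellate and fibroblast markers 5 had a difference above 0 in each knockout against control, with medians of -0.025 in SMRT KO and -0.19 in double KO livers. The marker Lrat fell in double KO livers. Their summed signal was 7218 to 8832 in control, 7422 to 9048 in SMRT KO and 6096 to 7876 in double KO livers. The ranges of both knockouts overlapped the controls. The part of stellate cell content in the Rarb differences was not tested.

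Of all genes 1.30% had values above the controls in all 6 knockout livers, as Pparg and Rarb did, and 1.47% had values below the controls in all 6, as Hnf4g did, which is near background. Both knockouts are set against the same 3 controls, so nothing particular to these receptors is read from the shared pattern. The 250 bases before each annotated start of Pparg and Rarb are shown because both genes had this pattern. They come from RefSeq on GRCm38.p6, written 5′ to 3′ on the gene's strand, with 6-base receptor motifs in capitals. The motifs searched, on both strands, were the consensus AGGTCA and, as its variants, GGGTCA along with AGTTCA as well as GGTTCA. They were sought alone and as direct repeats spaced by 1 to 5 bases. Which start of Pparg the probe set reads was not tested.
Pparg start 1, chr6:115360894-115361143, + strand: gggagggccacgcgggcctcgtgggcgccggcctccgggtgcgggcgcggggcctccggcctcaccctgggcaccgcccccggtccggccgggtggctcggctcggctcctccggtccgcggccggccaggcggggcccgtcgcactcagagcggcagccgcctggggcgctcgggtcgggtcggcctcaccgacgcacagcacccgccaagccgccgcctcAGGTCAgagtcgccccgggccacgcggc
Pparg start 2, chr6:115362099-115362348, + strand: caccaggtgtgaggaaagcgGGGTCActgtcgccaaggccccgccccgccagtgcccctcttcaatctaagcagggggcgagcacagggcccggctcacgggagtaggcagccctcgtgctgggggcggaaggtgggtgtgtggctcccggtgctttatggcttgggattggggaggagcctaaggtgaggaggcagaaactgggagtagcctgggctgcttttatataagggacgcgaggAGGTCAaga
Pparg start 3, chr6:115421816-115422065, + strand: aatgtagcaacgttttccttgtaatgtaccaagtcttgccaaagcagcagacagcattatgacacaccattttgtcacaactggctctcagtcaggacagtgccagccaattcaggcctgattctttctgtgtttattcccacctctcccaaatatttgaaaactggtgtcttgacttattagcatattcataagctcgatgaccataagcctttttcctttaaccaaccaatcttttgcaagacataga
Rarb, chr14:16575477-16575726, - strand: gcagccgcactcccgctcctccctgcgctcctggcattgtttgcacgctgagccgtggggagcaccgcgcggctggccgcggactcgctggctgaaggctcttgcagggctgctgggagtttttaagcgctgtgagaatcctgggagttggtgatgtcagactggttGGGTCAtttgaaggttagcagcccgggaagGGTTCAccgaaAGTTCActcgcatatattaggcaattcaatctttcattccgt

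Single motifs were common, being present in 38.6% of 32851 RefSeq promoter windows and in 23 of the 59 windows of measured receptors (39.0%). The Pparg windows held 1, 2 and 0 of them and no direct repeat. The Rarb window held 3, among them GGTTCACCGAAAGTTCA, a direct repeat spaced by 5 that begins 53 bases before the start. A direct repeat spaced by 5, the arrangement known as a retinoic acid response element, occurred in 0.0883% of all windows and in no other receptor window searched. These matches describe letters and not binding.

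**Figure D2:**
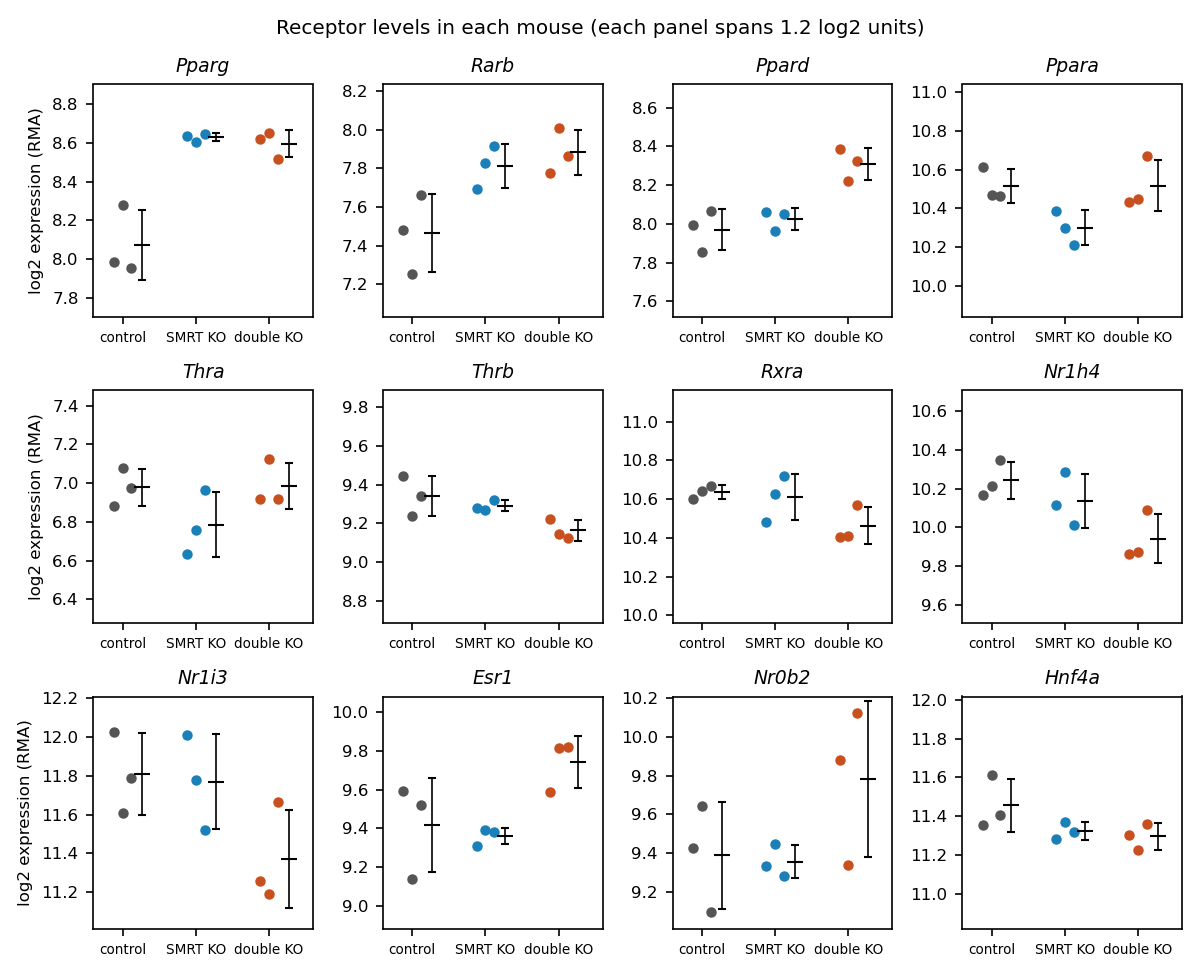
Points give the log2 expression of 12 receptors in each mouse, in replicate order within control, SMRT KO and double KO, with the mean and SD (n = 3) beside them, and every panel spans the same range. Pparg and Rarb are above the controls in all 6 knockout livers, Ppard in the 3 double KO livers, and Nr1h4, Rxra and Thrb are below the controls in double KO livers.

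The other 2 retinoic acid receptors and the 3 retinoid X receptors gave smaller differences, none of which passed. Rara differed by 0.052 in SMRT KO and 0.050 in double KO livers, and Rarg by 0.082 and -0.023. Rxra, the common partner of the hepatic receptors, measured 10.60, 10.64 and 10.67 in the controls, 10.48, 10.63 and 10.72 in SMRT KO and 10.40, 10.41 and 10.57 in double KO livers. Its double KO values lay below the controls without overlap (-0.18, interval -0.35 to 0.0025), which did not pass (adjusted p = 0.470). Rxrb measured 7.72, 7.88 and 7.72 in the controls, 7.70, 7.57 and 7.49 in SMRT KO and 7.86, 7.72 and 7.88 in double KO livers, lower in SMRT KO livers than in both other groups (-0.19 against control, adjusted p = 0.829). Rxrg differed by 0.058 and 0.19.

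Both thyroid hormone receptors, the receptors this series was built around, differed from control by at most 0.19 in size, and neither passed. Thrb, the main hepatic form, measured 9.45, 9.24 and 9.34 in the controls, 9.28, 9.27 and 9.32 in SMRT KO and 9.23, 9.14 and 9.13 in double KO livers. The double KO values were below all others without overlap (-0.18 against control, interval -0.33 to -0.023, adjusted p = 0.381, and -0.13 against SMRT KO, adjusted p = 0.600). Thra measured 6.88, 7.08 and 6.98 in the controls, 6.63, 6.76 and 6.96 in SMRT KO and 6.92, 7.12 and 6.92 in double KO livers, and its groups overlapped. Its difference was -0.19 in SMRT KO (adjusted p = 0.865) and 0.0083 in double KO livers (adjusted p = 0.990).

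The receptors for oxysterols, bile acids and foreign compounds did not pass in any comparison, and the largest differences were lower values in double KO livers. Nr1i3 (CAR), which senses drugs and other foreign compounds, measured 12.03, 11.61 and 11.79 in the controls, 12.01, 11.78 and 11.52 in SMRT KO and 11.26, 11.19 and 11.66 in double KO livers. Double KO replicate 3 overlapped the controls, and the difference of -0.44 (interval -0.81 to -0.069) had an adjusted p of 0.362. Nr1h4 (FXR), the bile acid receptor, measured 10.17, 10.21 and 10.35 in the controls, 10.11, 10.28 and 10.01 in SMRT KO and 9.86, 9.87 and 10.09 in double KO livers, lower in double KO than in control livers without overlap (-0.30, adjusted p = 0.258). Nr1h3 (LXR alpha), the oxysterol receptor, measured 8.91, 8.88 and 8.91 in the controls, 8.86, 8.95 and 9.01 in SMRT KO and 8.76, 8.86 and 8.77 in double KO livers. Every double KO value lay below the other groups, the nearest by less than the second decimal, and the difference against control was -0.11 (interval -0.25 to 0.035, adjusted p = 0.615). Nr1i2 (PXR), a second drug sensor, measured 10.78, 10.56 and 10.82 in the controls, 10.74, 10.60 and 10.68 in SMRT KO and 10.79, 10.76 and 11.07 in double KO livers. Its double KO values lay above the SMRT KO values without overlap (0.20, adjusted p = 0.561) and overlapped the controls (0.16, adjusted p = 0.651). Vdr, the vitamin D receptor, differed by 0.0037 and -0.065 in the knockouts.

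Of the steroid receptors, Esr1, the estrogen receptor of hepatocytes, showed the widest difference. It measured 9.59, 9.14 and 9.52 in the controls, 9.31, 9.39 and 9.38 in SMRT KO and 9.59, 9.82 and 9.82 in double KO livers. Double KO livers lay above SMRT KO livers without overlap (0.38, interval 0.12 to 0.65, adjusted p = 0.235) and overlapped the controls, among which replicate 2 was low (0.33, adjusted p = 0.341). Nr3c1, the glucocorticoid receptor, measured 10.21 to 10.34 in control, 10.16 to 10.33 in SMRT KO and 10.17 to 10.26 in double KO livers, and differed from control by -0.021 and -0.046 (interval -0.20 to 0.11 for double KO). Nr3c2, the mineralocorticoid receptor, Esr2 and Pgr, near background, differed by values from -0.085 to 0.082 in the knockouts. The second probe set of Nr3c2 gave -0.054 and -0.0095.

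None of the 4 HNF4 and NR5 receptors, of which Hnf4a and Nr5a2 help to maintain liver identity, passed in any comparison. Hnf4a, which activates a large share of hepatocyte genes, measured 11.35, 11.61 and 11.40 in the controls, 11.28, 11.37 and 11.32 in SMRT KO and 11.30, 11.22 and 11.36 in double KO livers. Control replicate 2 was the highest of all, the groups overlapped, and the differences were -0.13 in SMRT KO (interval -0.31 to 0.046, adjusted p = 0.906) and -0.16 in double KO livers (interval -0.34 to 0.018, adjusted p = 0.521). Nr5a2 (LRH-1), a regulator of bile acid and cholesterol genes, measured 10.04 to 10.14 in control, 9.95 to 10.30 in SMRT KO and 9.93 to 10.18 in double KO livers and differed by 0.017 and -0.023 (interval -0.25 to 0.20 for double KO). Hnf4g, near background, measured 5.27, 5.43 and 5.29 in the controls, 5.13, 4.78 and 5.24 in SMRT KO and 4.92, 4.90 and 5.13 in double KO livers (-0.35 in double KO, adjusted p = 0.309). Nr5a1, the steroidogenic factor of adrenal and gonad, differed by 0.0089 and -0.017.

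The ROR and ERR receptors, many of which act without a known hormone, passed in no comparison. Rora, which activates clock and lipid genes, differed by 0.11 in SMRT KO and -0.065 in double KO livers, and its double KO values lay below the SMRT KO values without overlap (-0.18, adjusted p = 0.466). Esrra and Esrrg, which act on mitochondrial genes with PGC-1 coactivators, differed by values from -0.039 to 0.075 in the knockouts. Rorb and Esrrb, near background, differed by values from -0.12 to 0.15. The NR4A receptors, immediate early genes that rise within minutes of a stimulus, differed by values from -0.16 to 0.023, and 2 of the 3 were near background. The third, Nr4a1, measured 6.37, 6.47 and 6.04 in the controls, 6.03, 6.54 and 6.26 in SMRT KO and 6.32, 6.32 and 6.21 in double KO livers, so that its groups overlapped and the double KO values lay inside the range of the controls.

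The orphan repressors Nr2c1, Nr2c2, Nr2f1, Nr2f2, Nr2f6 and Nr6a1 differed by values from -0.13 to 0.13 in the knockouts, with overlapping groups. Nr2e1, near background, differed by 0.20 in SMRT KO livers, without overlap, and by 0.074 in double KO livers. Nr0b2 (SHP), which is induced by FXR and represses bile acid synthesis, was the most variable receptor within groups, with a pooled SD of 0.29 against a median of 0.11 over the 42. It measured 9.43, 9.64 and 9.09 in the controls, 9.34, 9.45 and 9.28 in SMRT KO and 9.88, 9.34 and 10.12 in double KO livers. Double KO replicates 1 and 3 were the highest of all livers while replicate 2 lay among the controls, and the difference of 0.39 (interval -0.045 to 0.83) did not pass (adjusted p = 0.524). Nr0b1, near background, differed by 0.021 and 0.15.

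Genes for the proteins that receptors recruit gave no call with all 9 mice in the fit. Of 24 coactivators, 0 were called in SMRT KO and 0 in double KO against control livers, with medians of -0.0086 and -0.014. Of all genes, 0.00451% and 0.843% were called in these 2 comparisons. Among 16 corepressors and other repressors besides NCoR and SMRT, 0 and 0 were called, with medians of 0.0086 and -0.011. At an unadjusted p under 0.05 limma counted 0 and 2 coactivators and 1 and 1 repressors, beside 6% and 10.8% of all genes. The widest difference against control was that of Ppargc1a (PGC-1 alpha), a fasting-induced partner of Ppara and Hnf4a, which measured 8.91, 8.39 and 8.77 in the controls, 8.97, 8.21 and 9.25 in SMRT KO and 7.61, 7.94 and 7.68 in double KO livers (-0.94 in double KO, adjusted p = 0.159). Its double KO values lay below those of both other groups, by -1.07 on the log2 scale against SMRT KO (adjusted p = 0.0889). Without SMRT KO replicate 2, the lowest of its group, both differences passed (adjusted p = 0.0407 against control and 0.0160 against SMRT KO). Tbl1xr1, a subunit of the NCoR and SMRT complex, differed by 0.46 (adjusted p = 0.250).

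Textbook targets of these receptors included 26 called genes in double KO livers. The 10 target lists were chosen with results of these data known, share genes and include 3 of the receptors (Rarb, Nr1h3 and Nr0b2), so their counts describe these livers and are not independent evidence. Of 117 measured targets, 20 rose and 6 fell in double KO against control livers (22.2%, beside 0.843% of all genes). The share of all genes includes those near background. With such dim genes left out, 28 targets were called, beside 256 of 13123 genes. In double KO against SMRT KO livers 16 rose and 7 fell (19.7%, beside 1.19%). In SMRT KO against control livers 0 were called, where 0.00451% of all genes were. At an unadjusted p under 0.05 limma counted 16 of the 117 there, beside 6% of all genes. The difference in response between receptors and targets was not tested. When each of the 9 mice was left out in turn, 11 of the 26 genes called against control passed every time. The number of calls was 16 without control replicate 1 or 3, and 14, 12 and 11 without double KO replicates 1, 2 and 3. In double KO against SMRT KO it was 14 without double KO replicate 2, and in SMRT KO against control it was 1 without control replicate 1 (Cd36) or 3 (Cyp26a1).

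Of 16 measured targets of Ppara, whose own mRNA differed by 0.0022, 6 rose and 0 fell in double KO livers. The median was 0.57 there, against -0.033 in SMRT KO livers. In double KO livers 11 of the 16 differences lay above 0 and 5 below 0. Creb3l3 was below the controls without overlap (-0.35, adjusted p = 0.237), which did not pass, and Cpt1a differed by -0.11. Ehhadh, a peroxisomal oxidation enzyme, measured 11.30, 11.76 and 11.03 in the controls, 11.54, 11.25 and 11.16 in SMRT KO and 12.99, 12.93 and 12.96 in double KO livers (3.02-fold over control, adjusted p = 0.00357). The 3 double KO values lay above all others. Pdk4, which restrains glucose oxidation, measured 7.14, 7.76 and 6.75 in the controls, 7.71, 6.70 and 7.19 in SMRT KO and 9.17, 9.13 and 10.43 in double KO livers (5.13-fold, adjusted p = 0.0281). Acot1 (4.01-fold), Acot2 (2.70-fold), Acaa1b (2.52-fold) and Plin2 (1.56-fold) also rose. All 6 also passed against SMRT KO livers, a comparison that uses the same double KO mice. There, Acot2 lost its call without SMRT KO replicate 1 or 3 or double KO replicate 2 (adjusted p up to 0.0573), and Pdk4 without SMRT KO replicate 2 or 3 or double KO replicate 2 (up to 0.0760). Without 1 mouse, calls were lost for Pdk4 (adjusted p up to 0.120, without SMRT KO replicate 3, control replicate 1 or 3 or any 1 double KO mouse), Acaa1b (up to 0.0610, any 1 double KO mouse) and Plin2 (up to 0.0694, control replicate 1 or 3 or double KO replicate 1 or 3).

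Of 13 Pparg targets, 0 rose in SMRT KO and 3 in double KO livers, with medians of -0.064 and 0.32. In double KO livers 8 of the 13 differences lay above 0 and 5 below 0. Cd36, a fatty acid transporter, measured 10.22, 9.69 and 9.67 in the controls, 10.58, 10.49 and 10.46 in SMRT KO and 11.12, 11.17 and 11.22 in double KO livers, so that every SMRT KO value lay between the controls and the double KO livers. It rose 2.48-fold in double KO (adjusted p = 0.00309), while the 1.57-fold difference in SMRT KO did not pass (adjusted p = 0.334) except without control replicate 1 (0.0342). Lpl, the lipoprotein lipase, measured 8.09, 8.34 and 7.71 in the controls, 8.11, 7.84 and 8.74 in SMRT KO and 9.58, 10.08 and 9.90 in double KO livers, and Fitm1 rose 2.07-fold (adjusted p = 0.0276). The call of Lpl was lost without double KO replicate 2 or 3 (adjusted p up to 0.0670) and that of Fitm1 without 6 mice (SMRT KO replicate 1, control replicates 2 and 3 and the 3 double KO mice, up to 0.112). Fabp4, a fatty acid binding protein of adipocytes and macrophages, measured 8.25, 8.81 and 8.24 in the controls, 7.90, 7.37 and 7.98 in SMRT KO and 7.61, 8.08 and 7.57 in double KO livers. Its values lay below the controls without overlap in both knockouts (-0.68 in SMRT KO and -0.68 in double KO livers), and neither difference passed (adjusted p = 0.724 and 0.251).

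**Figure D3:**
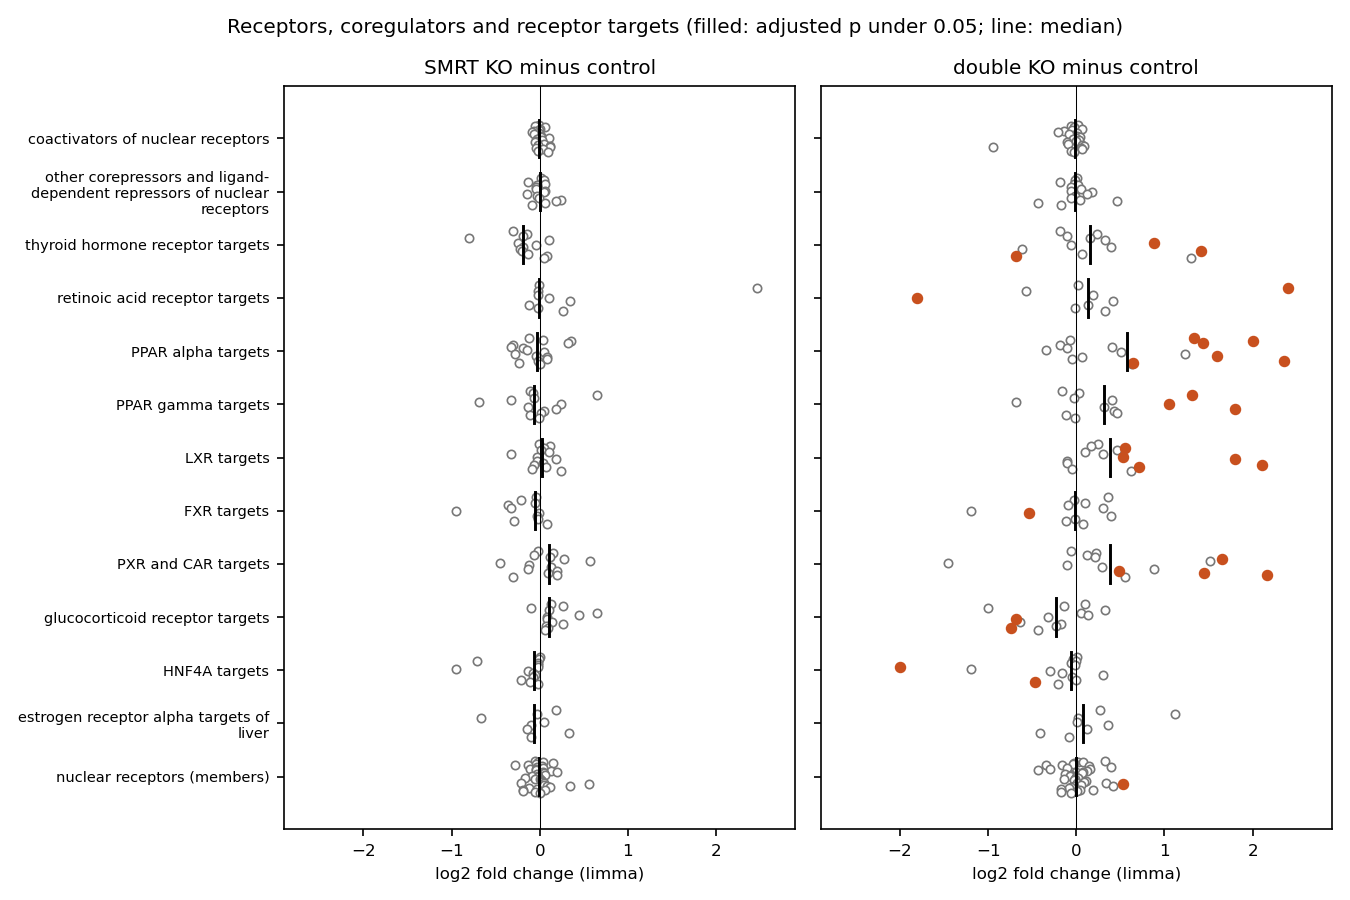
Each point is the log2 fold change of 1 gene against control, in SMRT KO (left) and double KO livers (right), for the receptors, their coregulators and 10 lists of receptor targets, with a line at each median, and a gene on several lists appears in each. Filled points passed an adjusted p of 0.05, which 26 targets, 1 receptor and 0 coregulators did in double KO livers and 0 of these genes did in SMRT KO livers.

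Retinoic acid targets were called in both directions. Cyp26a1, which degrades retinoic acid, measured 7.07, 6.57 and 8.39 in the controls, 9.73, 9.54 and 10.16 in SMRT KO and 9.82, 9.77 and 9.65 in double KO livers, higher in all 6 knockout livers than in any control. It rose 5.28-fold in double KO (adjusted p = 0.0239), and the 5.53-fold difference in SMRT KO did not pass (adjusted p = 0.194). Without control replicate 3, the highest of the controls, the SMRT KO difference passed (adjusted p = 0.00269). Lrat, the retinol-esterifying enzyme of stellate cells, measured 8.68, 8.78 and 9.13 in the controls, 9.03, 8.79 and 9.09 in SMRT KO and 7.02, 7.19 and 6.97 in double KO livers. It fell 3.49-fold in double KO livers (adjusted p = 0.000397, and 0.000391 against SMRT KO). Of 9 measured targets, these were the 2 called, and 6 differences lay above 0 and 3 below 0 in double KO livers. Cyp26b1 was lower in double KO than in control livers without overlap, which did not pass (-0.57, adjusted p = 0.0676). It passed with dim genes left out (adjusted p = 0.0419) or without SMRT KO replicate 3 (0.0331). The Cyp26a1 call was lost without control replicate 1 or any 1 double KO mouse (adjusted p up to 0.112).

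Of 14 LXR targets, with Nr1h3 itself on the list, 5 rose in double KO livers (median 0.38) and 0 in SMRT KO livers (median 0.030). In double KO livers 11 of the 14 differences lay above 0 and 3 below 0. Pltp, the phospholipid transfer protein, measured 8.47, 8.72 and 8.91 in the controls, 8.90, 8.55 and 8.46 in SMRT KO and 10.61, 11.29 and 10.52 in double KO livers (4.31-fold, adjusted p = 0.00304). Scd1 (1.63-fold), Abcg5 (1.47-fold) and Lpcat3 (1.44-fold) were called beside Lpl, and each lost its call without at least 5 of the 9 mice (adjusted p up to 0.0942, 0.127 and 0.136). Scd1 lost it with any 1 control or double KO mouse left out, Abcg5 with any 1 double KO mouse or control replicate 1 or 3 left out, and Lpcat3 with any 1 mouse but double KO replicate 1 left out.

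Of 14 PXR and CAR targets, 4 rose in double KO livers. There Nr1i3 (CAR) was lower in value (-0.44, adjusted p = 0.362) and Nr1i2 (PXR) higher (0.16, adjusted p = 0.651). Both receptors overlapped the controls and neither passed. Ces2a, a carboxylesterase, measured 10.73 to 11.04 in control, 11.13 to 11.29 in SMRT KO and 12.52 to 12.71 in double KO livers (3.15-fold, adjusted p = 0.000147). Gstm3 (4.47-fold), Cyp3a25 (2.72-fold) and Cyp3a11 (1.39-fold) also rose, the last losing its call without control replicate 2 or 3 or any 1 double KO mouse (adjusted p up to 0.124). The difference of the CAR target Cyp2b10, 1.52, did not pass (adjusted p = 0.185). Cyp2b13, on the same list, differed by -1.46, with double KO values below the controls without overlap (adjusted p = 0.250). Of the 14 targets, 11 had a difference above 0 and 3 below 0 in double KO livers. Among 11 FXR targets Fgfr4, the hepatic receptor for the bile acid signal FGF15, fell by 0.53 (adjusted p = 0.0438). That call was lost without 8 of 9 mice, all but SMRT KO replicate 3 (up to 0.156). Of the 11, 5 had a difference above 0 and 6 below 0 in double KO livers (median -0.014). Against control, Abcb11 was higher (0.36, adjusted p = 0.120) and Cyp8b1 lower (-1.20, adjusted p = 0.392), both without overlap. Neither passed.

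Thyroid hormone targets were called in both directions in double KO livers. Of 13, Me1 (2.66-fold, adjusted p = 0.0195) and Gpd2 (1.84-fold, 0.0346) rose and Pck1, which is also a glucocorticoid target, fell. Pck1, the enzyme that starts glucose production from oxaloacetate, measured 13.10, 12.88 and 13.04 in the controls, 13.16, 13.00 and 13.10 in SMRT KO and 12.33, 12.30 and 12.33 in double KO livers (log2 fold change -0.68, adjusted p = 0.00395). The median of the list was -0.19 in SMRT KO and 0.15 in double KO livers. Calls were lost with any 1 control or double KO mouse left out for Me1 (adjusted p up to 0.0942) and Gpd2 (up to 0.133), and for Gpd2 also without SMRT KO replicate 2.

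Of 13 glucocorticoid receptor targets, with Nr3c1 itself at -0.046, 2 fell in double KO against control and 3 against SMRT KO, with limma's adjusted p under 0.05. Differences were below 0 for 9 of the 13 against control (median -0.23), where 10789 of 22180 genes were, and for 12 against SMRT KO (median -0.44), where 10950 were. In SMRT KO against control livers 12 of the 13 were above 0 (median 0.11), where 11184 of all genes were, so the median against SMRT KO includes higher SMRT KO values. Tsc22d3 (GILZ), an anti-inflammatory target, measured 9.06, 8.88 and 8.81 in the controls, 9.11, 8.82 and 9.09 in SMRT KO and 8.27, 8.20 and 8.07 in double KO livers (-0.74 against control, adjusted p = 0.0129, lost without double KO replicate 2 or 3 with values up to 0.0670). Per1, a clock gene induced by glucocorticoids, fell by 0.78 against SMRT KO (adjusted p = 0.0277), a call lost without control replicate 3 or any 1 SMRT KO or double KO mouse (up to 0.125). The labels do not state the hour at which livers were taken.

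HNF4A and estrogen receptor targets gave few calls. Of 14 HNF4A targets 2 fell in double KO livers, Cyp2d9 (log2 fold change -2.00, adjusted p = 0.00357) and Serpina1a (-0.47, 0.0251), the second losing its call without control replicate 1 or 2 or any 1 double KO mouse (up to 0.116). Of 8 estrogen receptor targets 0 were called against control (2 at an unadjusted p under 0.05 by limma) and Susd4 fell against SMRT KO (-0.75, adjusted p = 0.0183), a call lost with any 1 SMRT KO mouse or double KO replicate 2 or 3 left out (up to 0.0939).

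**Figure D4:**
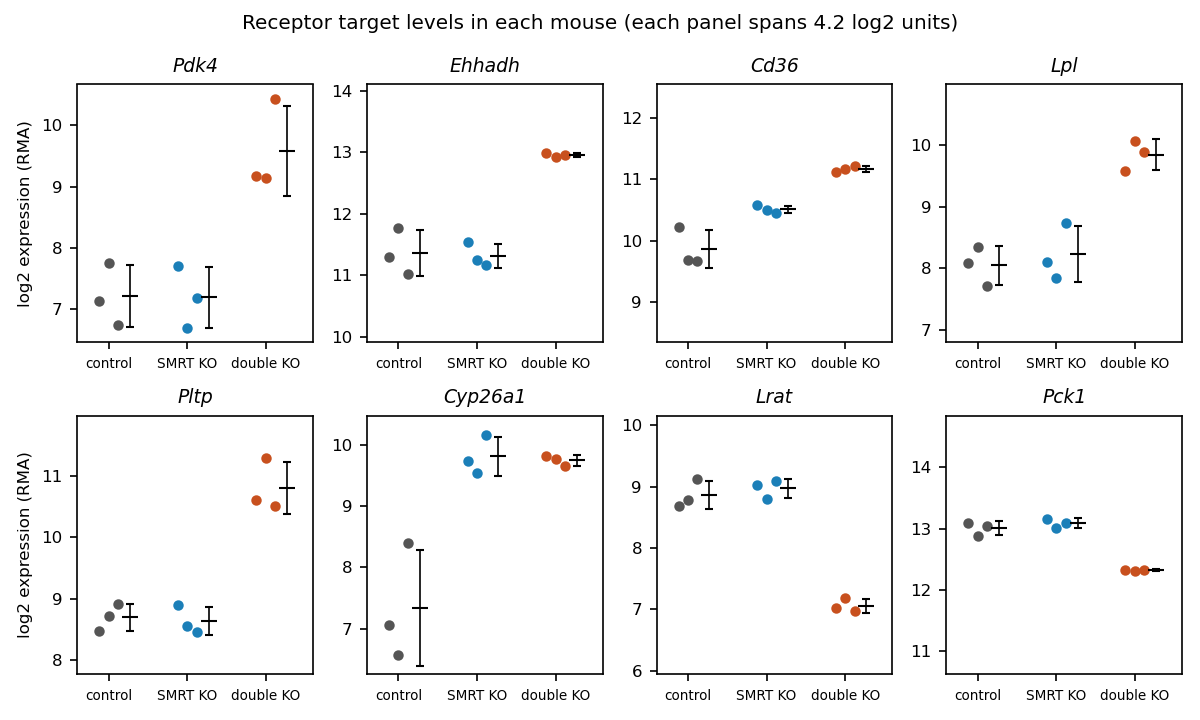
Points give the log2 expression of 8 receptor targets in each mouse, in replicate order within control, SMRT KO and double KO, with the mean and SD (n = 3), and each panel spans the same range. Pdk4, Ehhadh, Lpl and Pltp are above and Lrat and Pck1 below all other livers in the 3 double KO livers, while Cyp26a1 is above the controls in all 6 knockout livers.

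Among cell type markers, hepatocyte markers had medians of -0.025 in SMRT KO and -0.12 in double KO livers, and 1 of 9 fell in double KO livers (Serpina1a, which is also on the HNF4A list). Their summed signal was 78090 to 79810 in control, 76695 to 80080 in SMRT KO and 70364 to 73041 in double KO livers, and its part in the lower values of Thrb, Rxra, Nr1h4 and Nr1i3 was not tested. Endothelial markers summed to 8052 to 9201 in control, 9266 to 9797 in SMRT KO and 7838 to 9589 in double KO livers. None of the 7 cholangiocyte, 9 lymphocyte, 8 neutrophil, 1 erythroid or 4 pancreatic acinar markers measured passed against control in either knockout. At an unadjusted p under 0.05 limma counted 1, 0, 0, 0 and 1 in double KO livers, beside 10.8% of all genes. In SMRT KO livers it counted 1, 1, 0, 0 and 0, beside 6%.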

How the data were processed

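Liver RNA (200 ng per mouse) was amplified, labelled with biotin and hybridised to Affymetrix whole-transcript arrays. The deposited table holds log2 expression values for 41345 probe sets, made by the authors with RMA per the submitters' processing notes, version not given in the sources used here. RMA quantile-normalizes arrays together, so a shift shared by most genes would not show. Arrays carry no read depth, and their number limits precision.

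The platform annotation gave 1 symbol to 23521 probe sets and several to 1814, and 16010 were not listed. The probe set of highest mean was kept per symbol, with no filter. The test was limma's (version 3.58.1, R 4.3.3; two-sided moderated contrasts) in a model of 3 group means over 9 arrays (6 residual and 3.36 prior degrees of freedom). All adjusted p-values are limma's. An exact permutation test of 3 against 3 cannot go below 0.1, so none was used. The steps were tested on simulated data. Lists and members were chosen with earlier results of these data known. Values are named for all called receptors, the 8 largest differences per comparison and the main members of each role. Per target list, the called genes and up to 4 more by p are eligible. The remaining receptors are given by their differences, so that each is accounted for. Alternatives were other normalizations, a filter on dim genes, averaged probe sets, fits of 2 groups, a trended robust variance, a replicate block and each mouse left out. Sequences are RefSeq's.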

Additional observations from a re-analysis of the deposited data

How the results depend on the processing

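The count of called receptors was 0 in SMRT KO against control, 1 in double KO against control and 0 in double KO against SMRT KO. The last kept its value of 0 in all 17 alternatives. In SMRT KO against control it was 0 to 1 over the fits that left out 1 mouse, with 1 only without control replicate 2, and 0 in the others. In double KO against control it stayed 1 under repeated quantile normalization, cyclic loess, median centring, without dim genes, with averaged probe sets and with a trended robust variance. It was 0 to 1 over the fits that left out 1 mouse, 0 with only the 2 groups compared and 0 with the replicate block (adjusted p of Pparg 0.0530). Fits with fewer mice have fewer degrees of freedom. Same-numbered mice of different groups did not deviate together (r = -0.085 to 0.12 over genes, and 4 of 9 mice correlated best with their own number), so the numbers do not pair the mice. The block took calls over all genes from 187 to 152 in double KO against control. Of 1062 alternative values of the 21 named receptors, 10 lost a call and 1 gained it, all of Pparg, and 39 changed sign, none of them called or 1 standard error from 0 at first. No normalization moved the median of all genes by over 0.1. With 3 mice a group, differences like that of Ppard or Rarb cannot be told from the spread after adjustment over all genes.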
